A study of Mus musculus with 19 samples.

Results

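The genes described here are 10 markers of kidney macrophages: C1qa, C1qb, C1qc, Csf1r, Tyrobp, Lyz2, Mrc1, Adgre1, Aif1 and Cd68. They were chosen by symbol, and all 10 were found among the 20162 genes of the table for embryonic day E16.5 and the 24452 genes of the E14.5 table. The study profiled poly(A) RNA of sorted embryonic kidney cells from CFW mice, in 19 libraries and 7 groups, to compare progenitors of the nephron with progenitors of the stroma. At E16.5, cells of the nephrogenic zone (NZC), the outer rim of the kidney in which nephrons form, were either left unsorted (NZC) or sorted with an antibody into SIX2+ and SIX2- cells (n = 3 libraries each, no allele given). These libraries carry the name MARIS, a method in which cells are fixed, stained for a protein inside the cell and sorted before RNA is isolated. The GFP+ and GFP- groups, of the same age, are fractions of kidneys with Six2TGC/+, a transgene that places GFP and Cre under Six2 control (n = 3 each). At E14.5, Tdt+ and Tdt- cells came from Foxd1Cre;Tdt kidneys, in which Cre from Foxd1 switches on a red reporter in stromal progenitors and in the cells that descend from them (n = 2 each). The negative fractions are all cells that lack the marker and hold many cell types, so macrophages are one of several populations in them. No label ties the libraries to separate animals or pools, and p-values then measure the spread between these libraries, which may be technical.

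Tissue macrophages settle in the kidney while it forms, engulf dying cells and depend on the growth factor receptor encoded by Csf1r. Their 3 C1q genes encode the chains of C1q, the recognition subunit of the classical complement pathway. The other members encode a signalling adaptor (Tyrobp), the mannose receptor (Mrc1), the surface protein F4/80 (Adgre1), a calcium-binding protein of the actin cytoskeleton (Aif1), the bactericidal enzyme lysozyme (Lyz2) and a glycoprotein of lysosomes (Cd68). Six2 is the transcription factor that maintains nephron progenitors, and Foxd1 marks the stromal progenitors around them. Levels are given in RPKM (reads scaled to the length of the gene and the size of the library), and differences as log2(RPKM + 1), which understates changes of low genes. In bulk RNA, fewer cells of a type and less RNA per cell cannot be told apart.

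The labels were checked with Six2, which had 295 to 458 RPKM in SIX2+ and 312 to 348 RPKM in GFP+ libraries, against 4.43, 7.59 and 46.8 in SIX2- and 2.70, 2.88 and 16.8 in GFP- libraries. Library 3 of both negative groups thus held more Six2 than libraries 1 and 2. Foxd1 had 205 and 102 RPKM in Tdt+ against 29.9 and 25.2 in Tdt- libraries. Estimated depth was 26.1 to 45.3 M reads in 14 of the 15 E16.5 libraries and 3.10 M reads in NZC library 2, which also held 762 RPKM of the ribosomal transcript Rn45s, a gene chosen after its values were seen. Depth was 8.43 to 9.46 M reads in Tdt+ and 26.3 to 30.5 M reads in Tdt- libraries. Rn45s was also high at E14.5, with 1928 and 361 RPKM in Tdt+ and 2716 and 545 RPKM in Tdt- libraries. The other E16.5 libraries held at most 32.5 RPKM of it. Contrasts with NZC are also given without NZC library 2.

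The 3 C1q genes lie side by side on the minus strand of mouse chromosome 4 (mm10), C1qb at 136880129 to 136886187, C1qc at 136889804 to 136893065 and C1qa at 136895917 to 136898803, with 3617 and 2852 bases between them. Mrc1 is on chromosome 2 (14229392 to 14332057, plus), Tyrobp on 7 (30413760 to 30417585, plus) and Lyz2 on 10 (117277331 to 117282321, minus). Adgre1 (57358691 to 57483527, plus) and Aif1 (35170991 to 35176068, minus) are on chromosome 17. Cd68 (chromosome 11, 69664213 to 69666153, minus) stands between Eif4a1, 783 bases away, and Mpdu1, 1571 bases away, on the same strand. Lyz2 has a near-identical copy, Lyz1, 5476 bases away, with which it could share reads. Whether the counting used strand is not given in the sources used here.

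RefSeq promoter sequences (GRCm38.p6, the 250 bases before the RefSeq start) were at hand for 6 members: C1qb, C1qc, Lyz2, Mrc1, Aif1 and Cd68. The RefSeq starts differ from those of the gene spans given above, which are from GENCODE. The windows of C1qc (136892915 to 136893164), Lyz2, Mrc1 and Aif1 reach into those spans. They are shown for members that moved together across libraries (C1qb, C1qc and Mrc1) and for Cd68, which did not. Capitals mark GAGGAA, the core of sites for the ETS factor PU.1 (Spi1), a regulator of macrophage genes, written as TTCCTC where it is on the other strand. The regions are chr4:136886201-136886450 for C1qb, chr4:136893075-136893164 for a 90-base stretch of C1qc, chr2:14229164-14229413 for Mrc1 and chr11:69666171-69666420 for Cd68, all on their gene's strand.
C1qb: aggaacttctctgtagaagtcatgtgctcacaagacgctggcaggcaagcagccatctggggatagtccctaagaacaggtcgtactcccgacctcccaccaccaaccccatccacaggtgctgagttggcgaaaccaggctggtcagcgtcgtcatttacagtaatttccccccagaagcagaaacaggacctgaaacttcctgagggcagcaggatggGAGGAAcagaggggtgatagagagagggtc
C1qc: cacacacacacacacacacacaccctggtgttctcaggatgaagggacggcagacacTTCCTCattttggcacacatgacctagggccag
Mrc1: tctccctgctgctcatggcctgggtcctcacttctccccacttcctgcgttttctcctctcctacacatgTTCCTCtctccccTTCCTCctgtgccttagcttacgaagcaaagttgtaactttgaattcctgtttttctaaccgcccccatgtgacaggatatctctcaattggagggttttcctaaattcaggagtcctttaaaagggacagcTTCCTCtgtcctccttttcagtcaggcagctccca
Cd68: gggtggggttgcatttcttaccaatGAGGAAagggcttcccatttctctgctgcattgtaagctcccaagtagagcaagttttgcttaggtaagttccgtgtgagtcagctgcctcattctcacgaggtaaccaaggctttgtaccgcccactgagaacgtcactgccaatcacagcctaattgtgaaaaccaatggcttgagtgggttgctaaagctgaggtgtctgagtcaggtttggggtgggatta
Counted back from the base before the RefSeq start, GAGGAA began at −30 in C1qb, at −193 in C1qc, at −180, −167 and −35 in Mrc1, at −7 in Aif1 and at −225 in Cd68. It was present on either strand in 5 of the 6 members, Lyz2 being the exception, and in 23.3% of 32851 promoters of the same length. The longer GAGGAAGT was found in C1qc, beginning at −195, and in 2.44% of all promoters; it overlaps the GAGGAA there. Cd68 held TGANTCA, the letters bound by AP-1 factors, at −149 and −24, and 6.75% of all promoters held it. The other 5 members held no TGANTCA in this window, while GAGGAA was shared by Cd68, C1qb, C1qc, Mrc1 and Aif1.

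In both E16.5 sorts the C1q genes were low in nephron progenitors and well expressed in the cells left behind. C1qb, the chain at the start of the cluster, had 1.69, 0.0823 and 0.239 RPKM in the SIX2+ libraries and 13.8, 19.7 and 16.1 in the SIX2- libraries. It had 0.0442, 0.917 and 0.0584 RPKM in GFP+ and 11.8, 19.3 and 12.6 in GFP- libraries. The groups did not overlap in either sort, although SIX2+ library 1 and GFP+ library 2 stood above the others of their group. The log2 difference of C1qb was −3.50 ± 0.35 (SE) between SIX2+ and SIX2- cells (limma, adjusted p = 4.74e-06) and −3.57 ± 0.35 between GFP+ and GFP- cells (adjusted p = 2.84e-06). C1qa (−3.13 and −3.09) and C1qc (−3.23 and −3.37) fell on the same log2 scale in the SIX2 and the GFP sort. C1qa ran from 9.999 to 15.7 RPKM in SIX2- and from 8.87 to 12.1 in GFP- libraries, and C1qc from 12.4 to 17.0 and from 9.39 to 17.4.

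**Figure D1:**
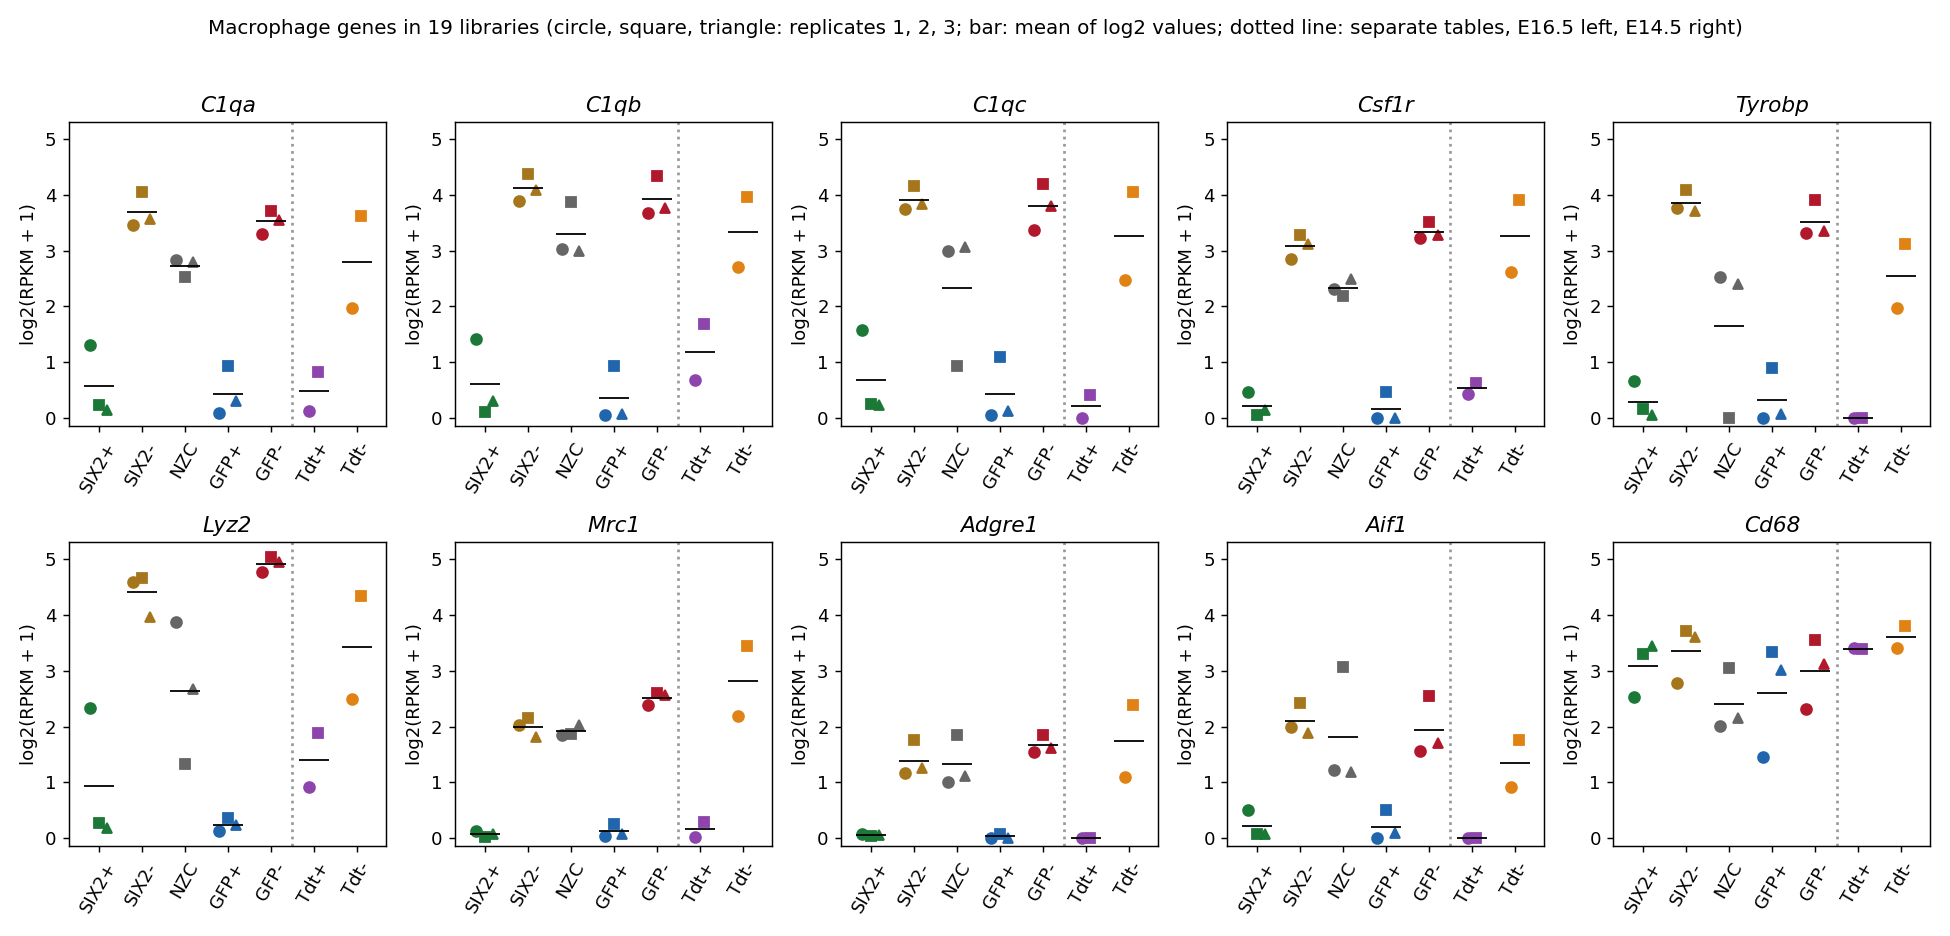
Each panel plots log2(RPKM + 1) of 1 member in the 19 libraries by group, with replicates 1, 2 and 3 as circle, square and triangle and the group mean as a bar. In 9 panels SIX2+, GFP+ and Tdt+ lie near the bottom, while Cd68 is at a similar height in every group.

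The receptor and its companion adaptor followed. Csf1r, the receptor for the ligands CSF1 and IL34, lies on chromosome 18 (mm10, 61100598 to 61132149, plus strand) and overlaps the oppositely oriented Hmgxb3 by 872 bases. It had 0.377, 0.0451 and 0.101 RPKM in SIX2+ and 6.26, 8.78 and 7.69 in SIX2- libraries. It was listed at 0 in GFP+ libraries 1 and 3, had 0.384 RPKM in GFP+ library 2, and had 8.34, 10.4 and 8.68 in GFP- libraries. The values of the positive and negative libraries were far apart, and the spread among negative libraries was small. The log2 difference was −2.87 ± 0.19 in the SIX2 sort (limma, adjusted p = 6.02e-08) and −3.18 ± 0.19 in the GFP sort (adjusted p = 1.50e-08). Tyrobp, which passes signals of several myeloid receptors to the kinase Syk, had 0.581, 0.116 and 0.0408 RPKM in SIX2+ against 12.6, 15.99 and 12.2 in SIX2- libraries. In the GFP sort it had 0, 0.860 and 0.0548 RPKM against 8.97, 13.9 and 9.17. The log2 differences of Tyrobp were −3.57 and −3.20, again with no overlap (limma, adjusted p = 0.000109 and 0.000214).

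Of the surface proteins, Mrc1 had 0.0962, 0.0164 and 0.0521 RPKM in SIX2+ and 3.06, 3.44 and 2.51 in SIX2- libraries. It had 0.0309, 0.193 and 0.0467 RPKM in GFP+ and 4.21, 5.03 and 4.90 in GFP- libraries. Its levels were below those of the C1q genes and varied little among negative libraries. The log2 differences were −1.92 ± 0.15 (limma, adjusted p = 3.27e-07) and −2.39 ± 0.15 (adjusted p = 2.71e-08). Adgre1, the gene of the F4/80 antigen by which mouse macrophages are usually stained, was the lowest of the members, at 1.24 to 2.38 RPKM in SIX2- and 1.93 to 2.58 in GFP- libraries. No positive E16.5 library exceeded 0.0563 RPKM of it. Its log2 differences were −1.33 and −1.64 (limma, adjusted p = 0.000387 and 4.76e-05).

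Lyz2 had the highest mean RPKM of the members in the SIX2- and GFP- groups. It had 4.05, 0.207 and 0.131 RPKM in SIX2+ and 23.0, 24.5 and 14.53 in SIX2- libraries, and 0.0889, 0.291 and 0.176 in GFP+ against 26.2, 32.0 and 29.9 in GFP- libraries. SIX2+ library 1 stood well above SIX2+ libraries 2 and 3, and below every SIX2- library. The log2 difference was −3.48 ± 0.57 in the SIX2 sort (limma, adjusted p = 0.000388) and −4.68 ± 0.57 in the GFP sort (adjusted p = 2.06e-05). Lyz1, the copy that could share its reads and a gene chosen after its values were seen, reached at most 0.450 RPKM in any library. Aif1 had 2.69 to 4.33 RPKM in SIX2- and 1.96 to 4.83 in GFP- libraries, and no positive E16.5 library exceeded 0.418 RPKM. Its log2 differences were −1.88 ± 0.41 and −1.74 ± 0.41 (limma, adjusted p = 0.00374 and 0.00503). These calls of Aif1 were lost when only libraries 1 and 2 of each group were used (adjusted p = 0.0517 and 0.0515, the highest over its alternatives, of which the lowest were 4.80e-05 and 4.61e-05).

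In the SIX2 sort 9 of 10 members were called lower in the positive cells, against 15.9% of the 12817 genes tested, and in the GFP sort 9 of 10 were, against 17.0% of genes. Cd68 was the member not called in either by this fit, which does not use the replicate numbers. The members' median log2 difference was −2.999 in the SIX2 sort and −3.13 in the GFP sort, beside 0.04 and 0.09 over all genes tested. The groups did not overlap for the same 9 members in each sort, as for 24.9% and 24.4% of all genes in that direction. The 9 members other than Cd68 passed the filter on low values through the groups in which they were high. Cd68 had at least 1.75 RPKM in every E16.5 library.

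**Figure D2:**
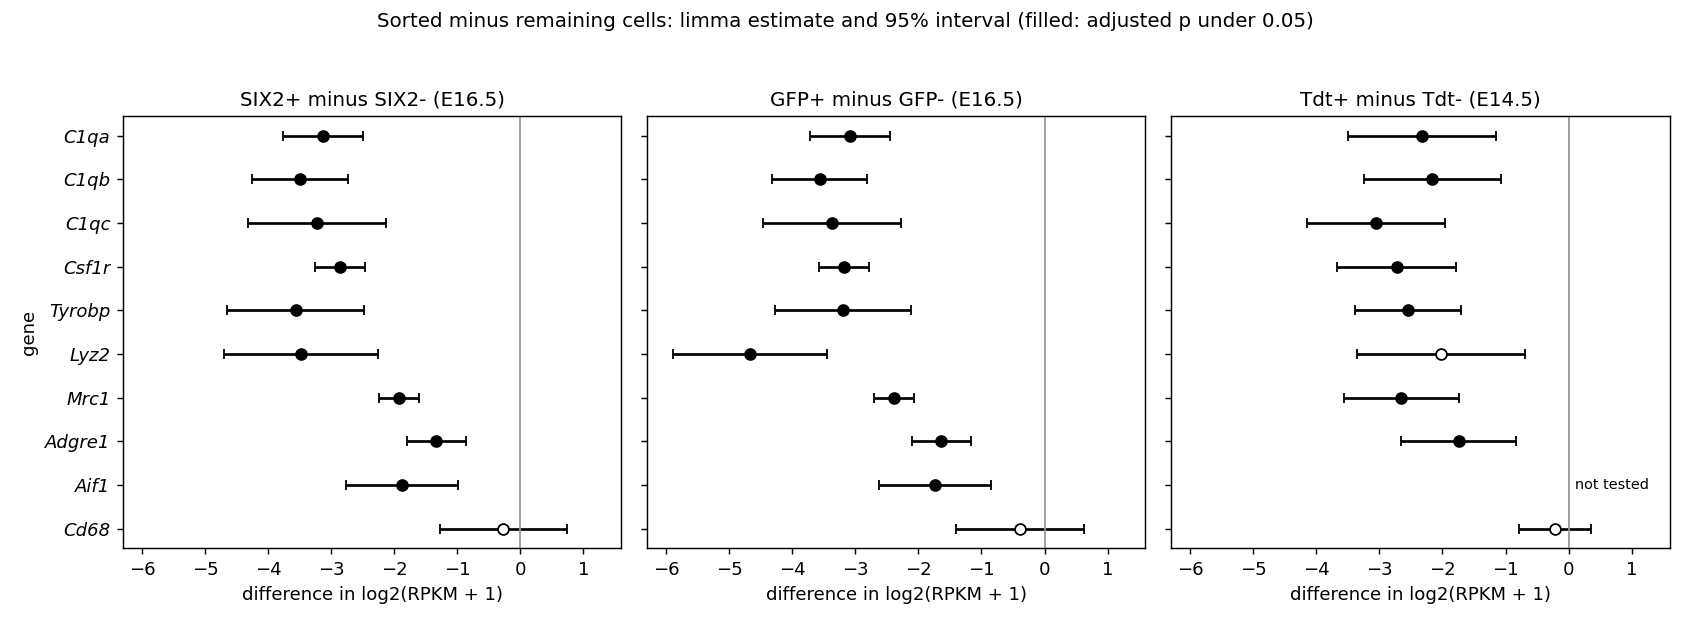
Points are limma estimates of the difference in log2(RPKM + 1) between positive and negative cells for each member (vertical axis), with 95% intervals, and filled points passed an adjusted p of 0.05. Cd68 is the gene near 0 in all 3 panels, and Lyz2 has the greatest difference of the GFP sort, at −4.68.

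The small amount left in positive cells was not the same in every library. For the 9 members without Cd68, SIX2+ library 1 held 3.15% to 17.6% of the level in SIX2- library 1, with a median of 12.2%. The medians were 0.845% and 1.33% in SIX2+ libraries 2 and 3. In the GFP sort, library 2 stood out, with a median of 4.75% (0.910% to 8.49%), against 0.375% and 0.598% in libraries 1 and 3. The summed level of 10 pan-leukocyte genes was highest in the same libraries, 4.41 RPKM in SIX2+ library 1 against 2.22 and 2.55, and 4.15 in GFP+ library 2 against 2.85 and 2.78. Ptprc (CD45) of this list, chosen after its values were seen, was near 0 in all of them. It had 0.00645, 0.0116 and 0.00407 RPKM in SIX2+ libraries 1 to 3, so library 1 was not its highest. In GFP+ libraries it had 0.00415, 0.0317 and 0 RPKM. The summed level of 7 endothelial genes was highest in SIX2+ library 2 (5.62 RPKM, with 3.15 in library 1 and 2.29 in library 3) and in GFP+ library 2 (7.11, with 3.36 and 1.69). Without SIX2+ library 1 the count stayed at 9 lower members and their median difference was −3.25, and without GFP+ library 2 it stayed at 9 with a median of −3.33.

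**Figure D3:**
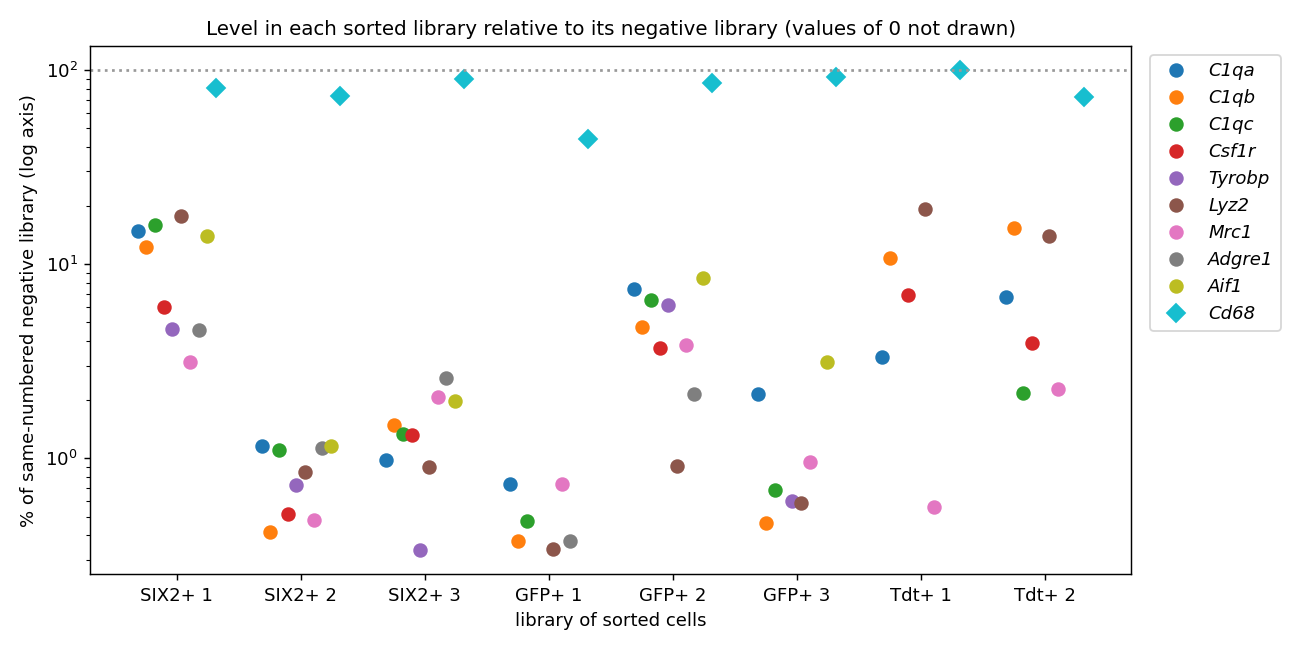
Each point is the level of 1 member in a library of positive cells, as a percentage of the same-numbered negative library, on a log axis with values of 0 left out. The circles reach 17.6% in SIX2+ 1 and 19.3% in Tdt+ 1, while Cd68 (diamonds) runs from 44.3% to 99.9%.

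Cd68 did not follow the other 9 members. It had 4.75, 8.81 and 9.94 RPKM in SIX2+ libraries and 5.85, 12.03 and 11.1 in SIX2- libraries. It had 1.75, 9.08 and 7.04 RPKM in GFP+ and 3.96, 10.6 and 7.68 in GFP- libraries. The groups overlapped in both sorts. E16.5 libraries numbered 1 were all below those numbered 2, while those numbered 3 overlapped both. Over the 15 E16.5 libraries Cd68 ran from 1.75 to 5.85 RPKM in those numbered 1, from 7.23 to 12.03 in those numbered 2 and from 3.46 to 11.1 in those numbered 3. Within pairs of the same number it was lower in the positive library in 6 of 6, at 44.3% to 91.7% of the negative one. The log2 difference was −0.27 ± 0.47 in the SIX2 sort (limma, adjusted p = 0.754, 95% interval −1.28 to 0.74) and −0.39 ± 0.47 in the GFP sort (adjusted p = 0.564, interval −1.40 to 0.62). Since same-numbered libraries were taken as pairs, the fit of the compared groups with a replicate block is given too: it called Cd68 lower in SIX2+ cells (adjusted p = 0.0317, the lowest of alternatives that reached 0.993, in a fit that called 24.6% of genes lower) and not in GFP+ cells (adjusted p = 0.0729, with alternatives up to 0.897).

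Across the 15 libraries, the log2 level of Cd68 had a Pearson correlation of 0.19 with the mean of the other 9 members, whereas each of those 9 had one of 0.84 to 0.99 (0.96 to 0.99 without NZC library 2). Points of 1 correlation share their library and depth, and the values are a description. Eif4a1 and Mpdu1, neighbours chosen after their values were seen, had 397 to 652 and 24.8 to 45.2 RPKM at E16.5, and their correlations with Cd68 were 0.28 and 0.06. The other genes of lysosomes on a list of 12 summed to 440 to 453 RPKM in SIX2+ and 549 to 597 in SIX2- libraries, and to 391 to 412 in GFP+ and 484 to 581 in GFP- libraries.

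**Figure D4:**
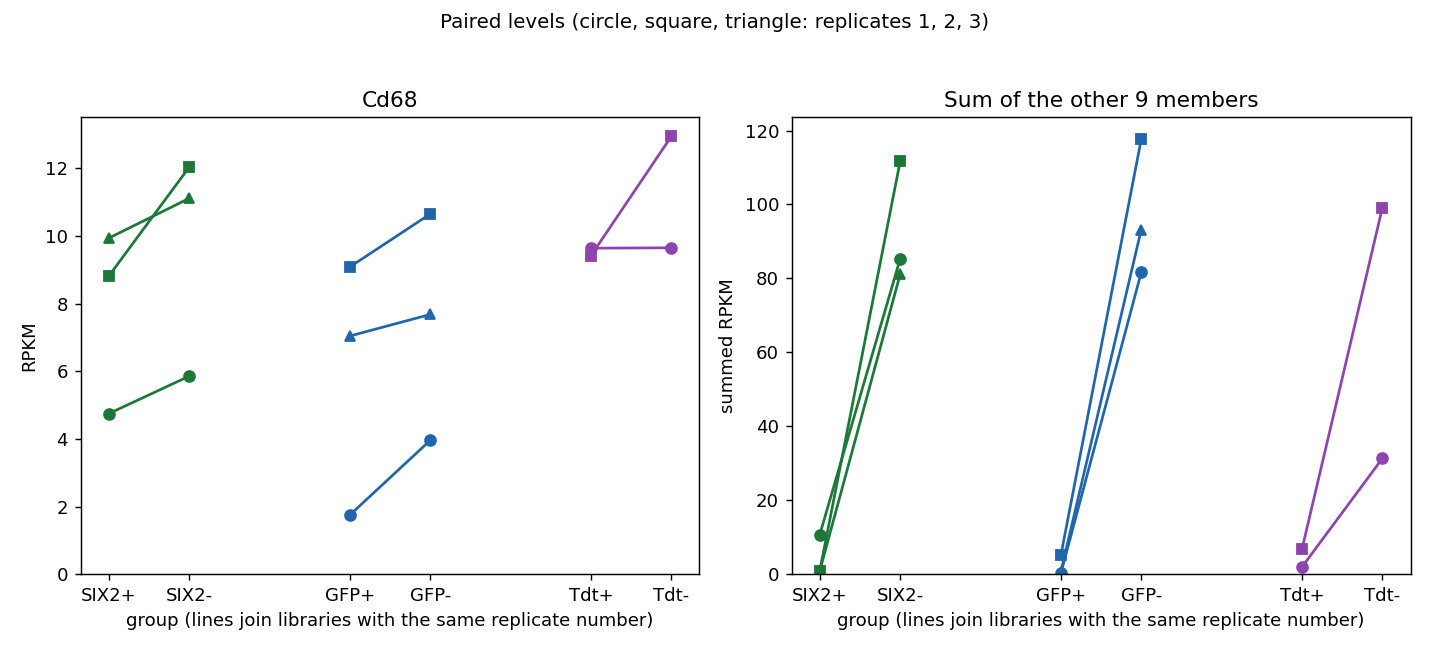
RPKM of Cd68 (left) and the summed RPKM of the other 9 members (right) are joined by a line between libraries of the same replicate number. In all 6 pairs at E16.5 Cd68 is lower in the positive library, while there the sum of the others goes from at most 10.7 RPKM to at least 81.1 RPKM.

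Unsorted nephrogenic zone cells had levels between those of the sorted fractions for most members. C1qa had 6.14, 4.76 and 5.97 RPKM in NZC libraries, below every SIX2- and above every SIX2+ library, and Csf1r had 3.99, 3.57 and 4.60. In NZC libraries 1 and 3, the 9 members had a median of 59.5% and 54.8% of the same-numbered SIX2- library. NZC library 2 was irregular: it had 13.6 RPKM of C1qb but 0.916 of C1qc, 7.36 of Aif1 and none of Tyrobp, of which 1 read would have been worth 0.539 RPKM. At its depth these values rest on about 46.1 reads of C1qb, 3.4 of C1qc and 20.0 of Aif1, and PCR copies add to that counting error. Against NZC, 9 of 10 members were lower in SIX2+ cells (18.5% of genes), from −1.27 for Adgre1 to −2.69 for C1qb on the log2 scale, and for 6 of these the groups did not overlap (21.6% of genes). Without NZC library 2 the count was 9 and the differences ran from −0.98 for Aif1 to −2.40 for C1qb. It was 6 without NZC library 1 or 3, or without SIX2+ library 2 or 3: the calls of C1qc, Tyrobp and Lyz2 were the ones lost. Cd68 was higher in SIX2+ cells by 0.68 ± 0.47 (limma, adjusted p = 0.264), or 1.001 without NZC library 2 (0.134).

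In SIX2- cells relative to NZC, Tyrobp rose by 2.21 ± 0.50 (limma, adjusted p = 0.0159), C1qa by 0.98 ± 0.30 (adjusted p = 0.0492) and Csf1r by 0.76 ± 0.19 (adjusted p = 0.0215). These are 3 of 10 members, against 5.16% of genes called higher. Lyz2 differed by 1.78 and C1qc by 1.58, with adjusted p of 0.0570 and 0.0580. Without NZC library 2 the difference was 1.39 for Tyrobp (limma, adjusted p = 0.0110), 0.69 for Csf1r (0.0410), 0.88 for C1qa (0.104, no longer called), 1.13 for Lyz2 (0.172) and 0.89 for C1qc (0.162). Mrc1 and Adgre1 had about equal levels in both groups, 3.003 ± 0.465 and 2.77 ± 0.260 RPKM (SD, n = 3) for Mrc1, and their log2 differences were 0.08 (95% interval −0.24 to 0.40) and 0.07 (−0.40 to 0.54), or 0.060 and 0.33 without NZC library 2. For 6 members every SIX2- library was above every NZC library, as for 16.6% of genes. With the replicate block 5 of 10 members were called higher, against 10.8% of genes in that fit, Lyz2 (adjusted p = 0.0337) and Cd68 (0.0165) being added. Without NZC library 2 the count was 2, without SIX2- library 2 it was 0, without SIX2- library 1 or 3 it was 1, and without NZC library 1 it was 5.
The 7 erythroid genes moved with this contrast the other way, with sums of 3.91 to 16.3 RPKM in SIX2- and 272 to 2979 in NZC libraries. Their part in the result was not tested.

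The same fractions were then compared between the antibody sort and the transgene sort. Between SIX2+ and GFP+ cells none of the 10 members was called by limma, none had an unadjusted p under 0.05 and all 10 overlapped, while 3.07% of genes were called and 13.1% and 13.7% did not overlap with SIX2+ lower and higher. Lyz2 differed by 0.69 ± 0.57 on the log2 scale (95% interval −0.54 to 1.91) and Mrc1 by −0.04 ± 0.15 (−0.36 to 0.27). Without SIX2+ library 1 the Lyz2 difference was −0.02. Between SIX2- and GFP- cells, Mrc1 was the member called, lower in SIX2- by 0.52 ± 0.15 (limma, adjusted p = 0.0426), as were 4.42% of genes. This call did not hold without any 1 of the 6 libraries (differences from −0.43 to −0.59, adjusted p over all alternatives 0.0135 to 0.236). Its SIX2- libraries (2.51 to 3.44 RPKM) and GFP- libraries (4.21 to 5.03) did not overlap, and neither did those of Lyz2 (14.53 to 24.5 and 26.2 to 32.0), in both cases with SIX2- lower, as for 15.3% of genes. With a replicate block and the compared groups alone, 4 of 10 members were called, a share near the 45.3% of genes called in that fit: Tyrobp and Cd68 higher and Lyz2 and Mrc1 lower in SIX2- cells.

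The difference between the SIX2 and the GFP contrast was tested itself. No member was called, as against 0.14% of genes. Mrc1 was the 1 member with an unadjusted p under 0.05. Its difference between the sorts was 0.47 ± 0.21 (SIX2 minus GFP contrast, limma, adjusted p = 0.843, 95% interval 0.02 to 0.92). For Lyz2 it was 1.201 ± 0.81 (95% interval −0.53 to 2.93).

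At E14.5 the same genes were low in Tdt+ cells of the Foxd1 lineage. Csf1r had 0.354 and 0.551 RPKM in Tdt+ and 5.11 and 14.1 in Tdt- libraries, and Mrc1 had 0.0198 and 0.223 against 3.54 and 9.82. C1qb had 0.596 and 2.23 RPKM in Tdt+ against 5.57 and 14.7 in Tdt- libraries. In these genes, Tdt- library 2 was well over Tdt- library 1, and the sum of the 9 members was 99.1 against 31.3 RPKM. The groups did not overlap for any of the 10 members, as for 31.0% of genes in that direction. The log2 difference was −2.73 ± 0.41 for Csf1r, −2.65 ± 0.40 for Mrc1 (limma, adjusted p = 0.00661 for each), −3.05 ± 0.47 for C1qc (0.00797), −2.32 ± 0.51 for C1qa (0.0298) and −2.16 ± 0.47 for C1qb (0.0299). Tyrobp (2.95 and 7.68 RPKM in Tdt-), Adgre1 (1.13 and 4.25) and Aif1 (0.897 and 2.38) were listed at 0 in both Tdt+ libraries, so no fold is given. At the lower depth of Tdt+ libraries 1 and 2, 1 read would have been worth about 0.177 and 0.1986 RPKM of Tyrobp. For Adgre1 it would have been 0.0326 and 0.0366 RPKM, and for Aif1 0.1208 and 0.1355 RPKM. Limma called Tyrobp (adjusted p = 0.00569) and Adgre1 (0.0340), and Aif1 did not pass the filter on low values.

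Lyz2 was still detected in Tdt+ cells, with 0.898 and 2.69 RPKM against 4.66 and 19.3 in Tdt- libraries, or 19.3% and 13.96% of the same-numbered library. Its log2 difference of −2.02 ± 0.58 was not called (limma, adjusted p = 0.0758, alternatives from 2.88e-07 to 0.368). It was called without Tdt+ library 2 (−2.50), without Tdt- library 1 (−2.94) and with a replicate block. Cd68 had 9.64 and 9.42 RPKM in Tdt+ and 9.65 and 12.9 in Tdt- libraries, a difference of −0.21 ± 0.25 (adjusted p = 0.660). In all, 7 of the 9 members tested were lower, against 7.21% of genes, with a median of −2.32 beside −0.04 over all genes. The tested members other than Cd68 needed the Tdt- libraries, in which they were high, to pass the filter on low values. Their shared direction and median are thus a description. With 2 libraries a group the fit has few degrees of freedom, and with no filter on low values none of the members was called (adjusted p of the 7 from 0.0957 for Tyrobp to 0.192 for C1qa). Without Tdt- library 1 the filter left 3 members, of which 2 were called, and without Tdt- library 2 it left 3, of which none was called.

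Proportions between members were compared next. In the 10 negative and NZC libraries other than NZC library 2, C1qa was 0.526 to 0.855 times and C1qc 0.796 to 1.06 times the RPKM of C1qb. The ratio of Csf1r to C1qb was 0.446 to 0.478 in SIX2-, 0.539 to 0.706 in GFP- and 0.918 to 0.959 in Tdt- libraries. Mrc1 (0.156 to 0.222, 0.261 to 0.390 and 0.636 to 0.669) and Adgre1 (0.0858 to 0.121, 0.134 to 0.164 and 0.203 to 0.290) had the same order with no overlap. Tyrobp had the opposite order, 0.756 to 0.916 in SIX2-, 0.721 to 0.760 in GFP- and 0.524 to 0.529 in Tdt- libraries, with overlap between SIX2- and GFP-. Lyz2 was 5.79 to 7.51 times Mrc1 in SIX2- and 6.09 to 6.36 times in GFP- libraries, but 1.32 to 1.97 times in Tdt- libraries. These ratios were noticed after the values were seen and were not tested, and 3 libraries against 3 cannot give an exact p under 0.1. Age, sort and table differ together between Tdt- and the rest and cannot be told apart. The longest transcripts of Mrc1, Csf1r and Adgre1 have 5374, 4701 and 3238 bases, and those of Tyrobp and the C1q genes 597 to 1203, so length moves with the order, and its part was not tested. NZC libraries 1 and 3, of the same method as SIX2-, had 0.554 and 0.658 for Csf1r and 0.360 and 0.439 for Mrc1.

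**Figure D5:**
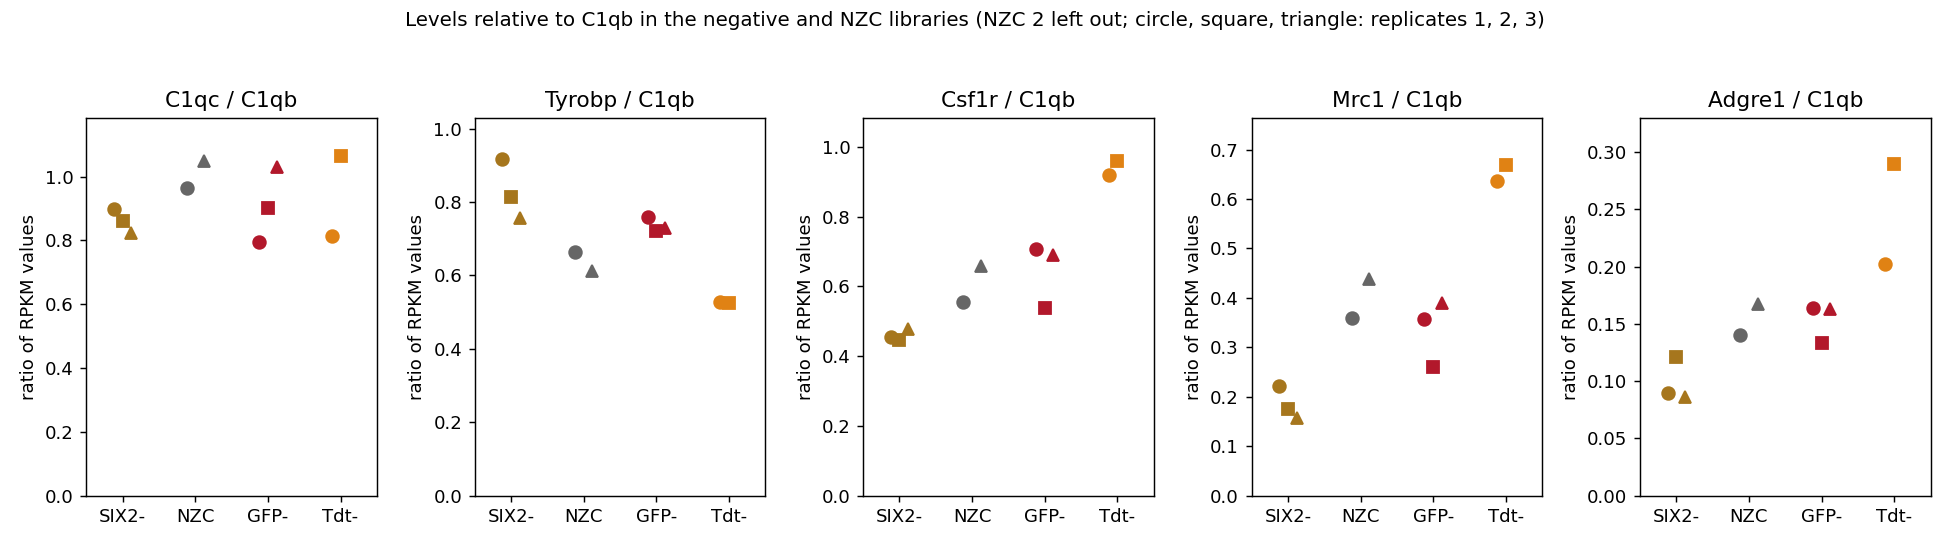
Ratios of RPKM to C1qb in each SIX2-, NZC, GFP- and Tdt- library (NZC library 2 left out), with replicates 1, 2 and 3 as circle, square and triangle. C1qc lies between 0.796 and 1.06 in all groups, Tyrobp is lowest in Tdt-, and Csf1r, Mrc1 and Adgre1 are lowest in SIX2- and highest in Tdt-.

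Most other genes of the macrophage program that were tested moved with the members. Of 20 further macrophage genes, 13 were tested in each E16.5 sort, and 13 were lower in SIX2+ and 12 in GFP+ cells. Over all genes tested, 15.9% and 17.0% were lower. The log2 differences in the SIX2 and the GFP sort were −3.11 and −2.94 for Pf4, a chemokine of platelets and tissue macrophages, −2.96 and −2.88 for Fcer1g, the signalling chain of Fc receptors, and −2.92 and −2.97 for the protease gene Ctss. At E14.5, 8 of 10 were lower, against 7.21% of all genes. The scavenger receptor Stab1 led (−3.06 ± 0.27, limma, adjusted p = 0.000929), with Fcer1g at −2.43 and Ctss at −2.36. Mertk had 12.9 RPKM in Tdt+ and 12.6 in Tdt- cells (group means) and was not called (limma, adjusted p = 0.956). Lyve1 was not called either (−0.51, adjusted p = 0.398). Stab1 is also a gene of some endothelial cells.

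Among 10 regulators of myeloid cells, 6 of 8 tested were lower in SIX2+, 7 of 8 in GFP+ and 4 of 8 in Tdt+ cells. Over all genes tested, 15.9%, 17.0% and 7.21% were lower in the SIX2, GFP and Tdt contrasts. Spi1, which encodes PU.1, had a log2 difference of −1.995, −2.03 and −1.47 in these contrasts, and Zeb2 −1.83, −2.53 and −1.73. Cebpb differed by −2.05 in GFP+ cells. Of 8 genes that carry receptor signals, 4 of 6 were lower in SIX2+ cells. The same number was lower in GFP+ cells, where Syk was higher (0.61 ± 0.19, limma, adjusted p = 0.0232). Among the lower genes of both were the kinase gene Lyn (−1.99 and −2.32) and the phosphatase gene Inpp5d (−1.01 and −1.06), whose calls were lost under quantile normalisation. In Tdt+ cells 3 of 5 were lower: Ptpn6 (−1.61), Syk (−1.58, a call lost without Tdt- library 2 at −1.51) and Plcg2 (−0.99).

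The genes of ligands that feed or attract macrophages were also lower in nephron progenitors. Of 9 ligand genes, 7 were tested, and all 7 were lower in SIX2+ and in GFP+ cells, against 15.9% and 17.0% of all genes. Csf1, the main growth factor of macrophages, had 1.83, 2.13 and 1.61 RPKM in SIX2+ against 6.71, 5.23 and 6.31 in SIX2- libraries, and 1.47, 1.35 and 1.05 in GFP+ against 8.63, 6.63 and 7.10 in GFP- libraries. No positive library reached a negative one, and the log2 difference was −1.31 ± 0.26 and −1.88 ± 0.26 (limma, adjusted p = 0.00202 and 7.76e-05). In the SIX2 sort the Csf1 call was lost with libraries 1 and 2 alone (adjusted p = 0.0694, alternatives from 3.21e-05). Gas6 and Pros1, bridging ligands for the uptake of dying cells, differed by −3.01 and −1.51 in the SIX2 sort and by −3.69 and −1.82 in the GFP sort. In the same order of sorts Tgfb1 differed by −3.02 and −2.90, Cxcl12 by −2.31 and −2.20, Cx3cl1 by −1.05 and −1.08 and Ccl2 by −1.62 and −1.12. The Ccl2 call in the GFP sort (adjusted p = 0.0270) was lost without any 1 of GFP+ libraries 1 to 3 or GFP- libraries 1 and 2 (differences −0.98 to −1.18). Il34, the second ligand of Csf1r, and Csf2 stayed under 0.575 and 0.108 RPKM in all libraries and were not tested.

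In Foxd1-lineage cells, Csf1 had 8.08 and 6.95 RPKM against 4.03 and 7.51 in Tdt- libraries, a log2 difference of 0.38 ± 0.31 that was not called (adjusted p = 0.512). Cxcl12 had 84.2 and 58.4 RPKM against 43.6 and 37.1, and was not called either (0.79 ± 0.26, adjusted p = 0.114). Gas6 was the 1 of 7 ligands that fell (−1.49 ± 0.23, limma, adjusted p = 0.00797), and its call was lost without Tdt- library 2 (−1.36). The differences of Tgfb1, Pros1, Ccl2 and Cx3cl1 were −0.54, −0.57, −0.66 and −0.35. Over all genes tested, 7.21% were called lower in Tdt+ cells.

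The complement genes that act with C1q were largely lower in nephron progenitors too. Of 6 tested, 5 were lower in SIX2+ and in GFP+ cells. None was called in Tdt+ cells by limma. There 2 had an unadjusted p under 0.05, and both of these were higher in Tdt+ cells. C1s1, a protease that joins C1q, differed by −3.44 and −3.46 on the log2 scale in the SIX2 and the GFP sort, and Serping1, the C1 inhibitor, by −3.17 and −3.69. In Tdt+ cells C1s1 had 15.9 RPKM against 8.03 in Tdt- cells, and Serping1 had 59.1 against 35.2 (group means). Their log2 differences there were 0.96 and 0.74. Of 11 lysosomal genes, 5 were lower in SIX2+, 7 in GFP+ and 1 in Tdt+ cells. Over all genes tested, 15.9%, 17.0% and 7.21% were lower, so the 1 lysosomal gene in Tdt+ cells is near that share. Lipa, the acid lipase, differed by −1.35 and −1.67, Ctsz by −0.85 and −0.90, and Ctsb by −0.82 in SIX2+ cells. Lamp2 differed by −1.12 in GFP+ cells (limma, adjusted p = 0.0441) and by −0.91 in Tdt+ cells (0.0365); the first call was lost without any 1 of the GFP+ libraries or GFP- libraries 1 and 2 (−0.88 to −1.28), and the second without either Tdt- library (−0.92 and −0.89).

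Markers of other blood and vessel cells were examined in the same libraries. Their counts, here and below, stand beside 15.9% of all genes called lower in SIX2+, 17.0% in GFP+ and 7.21% in Tdt+ cells. All 9 pan-leukocyte genes tested were lower in SIX2+ and in GFP+ cells, with Arhgdib at −3.25 and −3.01, Laptm5 at −2.19 and −2.02 and Lcp1 at −2.06 and −2.36. In Tdt+ cells 3 of 4 were lower (Laptm5, Lcp1 and Coro1a, at −2.56, −2.18 and −1.64), the last call being lost without Tdt- library 2 (−1.43). Arhgdib, chosen here after its values were seen, had 20.4 RPKM in Tdt+ and 9.37 in Tdt- cells. Ptprc (CD45), likewise, had 0.555 to 1.57 RPKM in the E16.5 negative libraries and at most 0.0317 in the positive ones.

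Transcripts of monocytes, granulocytes and mast cells were also present in the negative fractions. The 2 monocyte genes tested, Plac8 (−5.32 and −5.40) and Ccr2 (−0.92 and −1.31), were lower in SIX2+ and GFP+ cells. In Tdt+ cells Plac8 had 37.1 RPKM against 23.6 in Tdt- cells and was not called (adjusted p = 0.784). The neutrophil genes S100a8 (−2.13 and −2.83) and S100a9 (−2.04 and −3.27) were lower at E16.5, as was Ngp in GFP+ cells (−1.80), 2 and 3 of 4 tested, and S100a9 was lower at E14.5 (1 of 2 tested; listed at 0 in both Tdt+ libraries). Sums of the 9 neutrophil genes were 9.55 to 11.999 RPKM in SIX2-, 10.6 to 49.99 in GFP- and 3.91 to 5.33 in Tdt- libraries. The mast cell gene Cpa3 differed by −2.04 and −2.81, with Kit at −0.95 and −0.56 (both of 2 tested; the last call was lost without any 1 of the 6 libraries, −0.43 to −0.63). The platelet gene Gp1bb, 1 of 1 tested, differed by −1.25 and −0.63, the latter call being lost without GFP- library 1 (−0.55). Cd3d and Cd3e of T cells, chosen after their values were seen, were at 0 in all libraries except GFP- ones. Ms4a1 of B cells, likewise chosen, was at 0 in all libraries except Tdt- ones. These lists were not silent as a whole. Lck of the T cell list and Cd79b of the B cell list, also chosen after their values were seen, were detected in every group. Group means of Lck ran from 1.68 (GFP-) to 2.95 RPKM (NZC), and those of Cd79b from 0.369 (Tdt+) to 1.93 RPKM (SIX2-). One gene was tested from each of the T cell, B cell and dendritic cell lists and none from the NK cell list. Zbtb46 of the dendritic cell list was higher in GFP+ cells (0.57 ± 0.18, limma, adjusted p = 0.0275), a call lost without GFP+ library 3 or GFP- library 1 or 2 (0.42 to 0.56).

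Of the endothelial genes, 7 of 7 were lower in both E16.5 sorts (Emcn −4.29 and −3.48, Eng −4.01 and −3.56; Cldn5 −3.23 in SIX2+ and Cdh5 −3.00 in GFP+ cells) and 4 of 7 in Tdt+ cells (Cldn5 −3.52, Pecam1 −3.29, Cdh5 −2.85). Their sums were 56.8 to 158 RPKM in SIX2-, 44.1 to 84.6 in GFP- and 75.6 to 104 in Tdt- libraries. Of the 7 erythroid genes, none was called by limma in SIX2+ cells (none with an unadjusted p under 0.05) and all 7 were lower in GFP+ cells, led by Hba-a2 (−6.69), Hbb-bs (−6.59) and Hba-a1 (−6.55). Their sums were 818 to 8439 RPKM in GFP- against 3.91 to 16.3 in SIX2- libraries. In the test of the difference between the sorts none of the 7 was called after adjustment, and all 7 had an unadjusted p under 0.05. How far these other cell types take part in the levels of the members was not tested.

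Among 13081 genes, those whose log2 levels over the 15 E16.5 libraries were most like the mean of the members were Apoe, Fcer1g, Fcrls, Nostrin, Ifitm3 and Arpc1b, with Pearson correlations of 0.995, 0.987, 0.987, 0.982, 0.982 and 0.982 (0.982 to 0.996 without NZC library 2). The libraries share 5 groups and their depth, and the values are a description. Apoe, an apolipoprotein, had mean levels of 12.6, 92.4, 43.8, 11.2 and 79.8 RPKM in SIX2+, SIX2-, NZC, GFP+ and GFP- cells. Fcrls, an Fc receptor-like gene of macrophages, had 0.0948, 2.53, 1.47, 0.0962 and 2.81 RPKM in the same order. Ifitm3, an interferon-induced membrane protein, had 2.82, 115, 39.0, 1.601 and 74.5 RPKM.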

How the data were processed

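The authors deposited 1 table of 15 E16.5 libraries and 1 of 4 E14.5 libraries. RecoverAll and RNeasy Micro served for RNA and a Kapa stranded mRNA kit for libraries, per the labels' protocols; which library had which RNA kit is not given in the sources used here. TopHat2, Partek and mm10 are named per the submitters' processing notes, without versions. The deposited values, titled TPM, behave as RPKM: column sums varied with a coefficient of variation of 7.99% and 13.77%, and length-weighted sums with 2.43% and 2.75%. The test planned for TPM is the same for RPKM. The tables were normalised separately and tests stay within a table.

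Log2(RPKM + 1) was tested with limma 3.58.1 in R 4.3.3 (group means, eBayes with trend, two-sided, Benjamini-Hochberg over all genes tested, called at 0.05), on genes reaching 1 RPKM in 3 or more E16.5 libraries (12817 genes) or in 2 or more E14.5 libraries (12383 genes). This main fit has no term for replicate number, so its p-values leave out any pairing of libraries. The script was checked on simulated data. Other tools were matplotlib 3.10.9, pandas 2.3.3, numpy 2.4.6 and python 3.11.15. Positions are from GENCODE M21. Depth was estimated from low values, of which 47.2% to 59.0% lay within 0.05 of whole reads, so read numbers are approximate and no count model was used.

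The members, the 17 other lists and the tests were chosen with earlier results of these data known. Named genes are the members, Six2, Foxd1, all ligands, up to 3 called genes with the greatest change per list in the SIX2, GFP and Tdt contrasts, and the 6 genes most like the members' mean; others are said to be chosen after their values were seen. Some genes that this rule names are not reported here. Same-numbered libraries were taken as pairs by the rule that each correlation of their deviations from group means be over 0.1. These were 0.641, 0.279 and 0.676 for SIX2+ with SIX2-, and 0.455, 0.445 and 0.390 for GFP+ with GFP-. They were 0.424, 0.194 and 0.497 for SIX2- with NZC, and 0.458, 0.440 and 0.552 for SIX2- with GFP-. SIX2+ with NZC (0.28, 0.063 and 0.304) and SIX2+ with GFP+ (0.398, −0.0173 and 0.584) did not meet the rule. No label states the pairing. Alternatives were other pseudocounts (0.1 and 5), no filter or a minimum of 5, TPM, quantile and median-of-ratios scaling, a replicate block, only the groups compared, and leaving out each library; using libraries 1 and 2 alone, or the compared groups with a block, was added after seeing the data.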

Additional observations from a re-analysis of the deposited data

How the results depend on the processing

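In the SIX2 and the GFP contrast 8 to 10 of 10 members were lower under each alternative run on all of them, leave-one-out included, and with the replicate block the count stayed at 9. The counts that moved were those against NZC, between the negative fractions and at E14.5. SIX2+ against NZC fell from 9 to 5 lower members with a minimum value of 5 and with only the groups compared. SIX2- against NZC went from 3 higher members to 0 with a pseudocount of 0.1, with TPM, with only the groups compared (with or without a replicate block) and with libraries 1 and 2 alone, to 5 with a pseudocount of 5, quantile normalisation and the replicate block, and to 0 to 5 when libraries were left out. SIX2- against GFP- went from 1 to 0 with a pseudocount of 0.1, a minimum of 5 and libraries 1 and 2 alone, to 4 with only the compared groups and a replicate block, and to 0 to 1 when libraries were left out. Tdt+ against Tdt- went from 7 to 0 without a filter, to 2 with a minimum of 5 (3 members tested), to 4 with quantile normalisation and to 0 to 8 when libraries were left out. The replicate numbers of the Tdt libraries are 2 pairs only (r = 0.399), and their block gave 8. The block also called Cd68 higher in SIX2+ cells than in NZC (limma, adjusted p = 0.0297, alternatives up to 0.685). SIX2+ and NZC libraries did not meet the rule for pairs, so that call rests on no accepted pairing. Cd68 was called higher in SIX2- cells than in NZC too (limma, adjusted p = 0.0165, alternatives up to 0.486). With TPM, C1qa and C1qc between SIX2- and GFP- turned to −0.010 and −0.067, and Cx3cl1 in Tdt+ cells turned to 0.082 with quantile normalisation. Leaving out 1 library, log2 differences that changed sign ran from −0.56 to 0.013 (Cd68, SIX2 sort), −0.76 to 0.18 (Cd68, GFP sort), −0.12 to 0.33 (Adgre1) and −0.045 to 0.90 (Aif1) for SIX2- against NZC, −0.0098 to 0.29 (C1qa), −0.091 to 0.32 (C1qc) and −0.029 to 0.46 (Aif1) for SIX2- against GFP-, −0.017 to 1.06 (Lyz2) and −0.084 to 0.022 (Mrc1) for SIX2+ against GFP+, and −0.0029 to 0.76 (Csf1) and −0.73 to 0.032 (Cx3cl1) in Tdt+ cells. Over all genes, calls in Tdt+ against Tdt- went from 1044 to between 229 (no filter) and 3389 (without Tdt+ library 1), in SIX2- against NZC from 1424 to between 14 (only the groups compared) and 2603 (replicate block), in SIX2+ against NZC from 4697 to 1775 (compared groups and a block), in SIX2- against GFP- from 1296 to between 207 and 5505, in SIX2+ against GFP+ from 394 to between 99 and 1542 and in the difference between sorts from 18 to between 0 and 381. Calls rose from 3109 to 6319 in the SIX2 sort and from 4219 to 6426 in the GFP sort with the compared groups and a block. Higher and lower genes were 1073 and 2036 in the SIX2 sort, but 1578 and 1574 with quantile normalisation. With TPM they went from 2035 and 2184 to 1397 and 2532 (GFP sort), from 2320 and 2377 to 1281 and 2668 (SIX2+ against NZC), from 661 and 763 to 157 and 612 (SIX2- against NZC) and from 730 and 566 to 225 and 649 (SIX2- against GFP-). Quantile normalisation gave 498 and 824 for SIX2- against GFP-, and 239 and 483 in place of 151 and 893 for Tdt+ against Tdt-, and median-of-ratios scaling gave 361 and 836 for SIX2- against GFP-. TPM moved the median of all genes in Tdt+ against Tdt- from −0.04 to −0.29. The causes were not tested.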
